A study of Homo sapiens with 4 samples.

Results

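The unfolded protein response genes followed here are HERPUD1, ATF3, ATF4, ATF6, DDIT3, HSPA5, ERN1, EIF2AK3, DNAJB9 and EDEM1. Their open chromatin was compared between TMD8 cells with an shRNA against IRF4 (shIRF4, 2 libraries) and TMD8 cells with a scrambled shRNA (control, 2 libraries). TMD8 is an established line of activated B cell-like (ABC) diffuse large B cell lymphoma, and IRF4 encodes a transcription factor of B cells and plasma cells. The assay was ATAC-seq, which reads out accessible DNA from where a transposase inserts. A peak interval was assigned to one of these genes if its midpoint lay inside the gene body, or otherwise if the gene had the nearest end of any protein-coding gene within 100 kb, with coordinates on hg38. By this rule 38 of 73135 intervals belonged to 9 of the 10 genes, and all 38 had enough counts to be tested. DDIT3 had none. XBP1, another gene of the pathway, was left out by the rule. The labels give neither the number of hairpins nor the time after transduction, and the library names say siIRF4 where the titles say shIRF4.

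The unfolded protein response restores folding in the endoplasmic reticulum (ER) when unfolded proteins build up there. The response starts from 3 sensors in the ER membrane, which are held inactive by the chaperone BiP (HSPA5). IRE1 (ERN1) splices the mRNA of XBP1 and so switches on folding and degradation genes such as DNAJB9 and EDEM1. PERK (EIF2AK3) phosphorylates the initiation factor eIF2alpha, which lowers translation in general and raises that of ATF4, and ATF4 drives DDIT3 and ATF3. ATF6 is cut in the Golgi and its free part enters the nucleus, where it activates HSPA5 and HERPUD1. The response is best known in B-lineage cells for allowing plasma cells to secrete antibody.

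Total counts over all intervals were 17954924 and 9112860 in the shIRF4 libraries and 12152153 and 13609123 in the control libraries. Levels are given as CPM, each library's counts scaled to a common total. The libraries of a group are not stated to come from separate cultures, so the p-values measure only the spread between these libraries, which may be technical. That spread was wider in shIRF4 than in control: relative to counting noise alone, the chi-square per degree of freedom was 2.01 between the shIRF4 libraries and 1.04 between the control libraries. Over the 38 intervals, it was 1.33 in shIRF4 and 0.672 in control. Of the marker genes looked at, all 6 B cell genes had intervals, 62 in all. Intervals at the starts of 3 of them summed to 250 and 236 CPM in shIRF4 and 237 and 228 CPM in control. T cell genes had 20 intervals at 5 of 6 genes and none at a start. Myeloid genes had 8 intervals at 5 of 6 genes, with a start interval at 2 (13.4 and 14.1 CPM in shIRF4, 12.1 and 13.7 CPM in control). Plasma cell genes had 10 intervals at 4 of 4 genes, with a start interval at 2 (82.5 and 76.3 CPM in shIRF4, 96.1 and 93.7 CPM in control). Having an interval thus did not set the B cell genes apart. The plasma cell sums, lower in shIRF4, cover start intervals only, and their part in the results that follow was not tested. ATAC-seq does not measure IRF4 mRNA and so does not check the knockdown. The interval at the IRF4 start lay at 54.0 and 50.3 CPM in shIRF4 and 52.3 and 55.8 CPM in control. Among the other intervals assigned to IRF4, those starting at 371015 and 434659 were lower in shIRF4 by the test described below (log2 fold change -0.27 and -1.17). No further IRF4 interval passed it.

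Where accessibility at the unfolded protein response genes passed the test, it was mostly lower in shIRF4, and 14 of the 15 falls lay away from the gene starts, as did 10948 of the 11338 falls over all intervals. In these bulk samples, fewer cells with an open site and less opening per cell cannot be told apart. Of the 38 intervals, 15 fell, 3 rose and 20 did not pass an adjusted p of 0.05 (edgeR quasi-likelihood test, adjusted by Benjamini and Hochberg over all intervals). ERN1 held 5 of the falls, EDEM1, ATF3 and HERPUD1 held 3 each, and EIF2AK3 held 1. The rises lay at the starts of ERN1 and ATF4 and upstream of HERPUD1. Over all 73028 intervals tested, 22.8% were called, 15.5% as lower and 7.26% as higher. Values of the groups did not overlap at 32 of the 38 intervals and at 43129 of all those tested, so a lack of overlap was common. With libraries scaled by their totals only, 9926 of all intervals were lower and 7181 higher, against 11338 and 5301 as reported, and 12 of the 38 were lower and 4 higher. The median log2 fold change was -0.06 over the 38 intervals and 0.01 over all. The genes were chosen with earlier results of these data known, so the number of falls among them is a description.

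**Figure D1:**
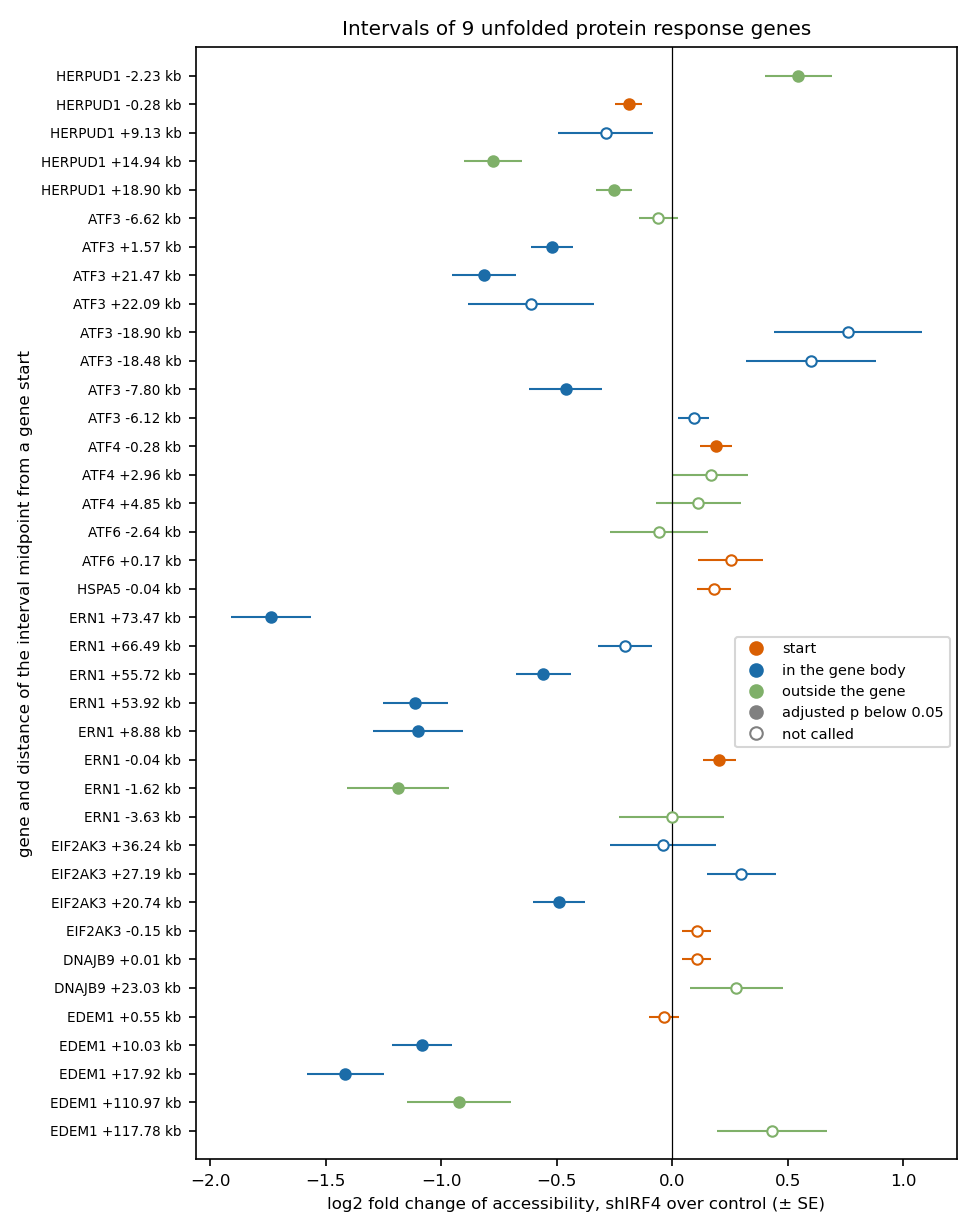
Log2 fold change of accessibility in shIRF4 over control (horizontal axis, bars show the SE) for the 38 intervals of 9 unfolded protein response genes. Rows give the gene and the distance in kb from the interval midpoint to the nearest listed start of that gene; filled points passed an adjusted p of 0.05. The 8 intervals at gene starts lie between -0.19 and 0.25, while intervals elsewhere reach -1.74.

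The calls were sensitive to the libraries used and to the test. Without control replicate 2, which leaves 1 control library, fewer of the 38 and also fewer of all intervals were called. DESeq2, which called 4570 of all intervals, called 9 of the 38 lower and 0 higher. In all 10 other fits, the 18 called intervals kept their direction, and 9 of them kept their call in every one. These 9 were 4 intervals of ERN1, 2 of EDEM1, 2 of ATF3 and 1 of HERPUD1.

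Intervals at gene starts had a median level of 57.9 CPM over the set and changed by at most 0.25 on the log2 scale. A start interval overlaps a window from 250 bases before to 50 bases after a start listed for the gene. Of the 9 genes, 8 had such an interval. Of these 8, those of ERN1 and ATF4 rose, that of HERPUD1 fell, and those of HSPA5, EIF2AK3, ATF6, DNAJB9 and EDEM1 did not pass. Among all 9857 tested intervals at starts of protein-coding genes, 8.66% were called, 3.96% lower and 4.71% higher. The median over the members' 8 start intervals was 0.14, and that over all start intervals was 0.04.

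The start windows of HSPA5, HERPUD1, ATF4 and ERN1 are shown because they carry the best known stress elements of the response, or lie in the start intervals that were called. They are RefSeq sequences (GRCh38.p14), each read in the direction of its gene. HSPA5 lies on the minus strand at chr9:125241294-125241593, HERPUD1 on the plus strand at chr16:56931892-56932191, ATF4 on the plus strand at chr22:39520309-39520608 and ERN1 on the minus strand at chr17:64130095-64130394. Capitals mark every match, on either strand, to the motifs described below, so that CCACG on the opposite strand reads CGTGG.
HSPA5: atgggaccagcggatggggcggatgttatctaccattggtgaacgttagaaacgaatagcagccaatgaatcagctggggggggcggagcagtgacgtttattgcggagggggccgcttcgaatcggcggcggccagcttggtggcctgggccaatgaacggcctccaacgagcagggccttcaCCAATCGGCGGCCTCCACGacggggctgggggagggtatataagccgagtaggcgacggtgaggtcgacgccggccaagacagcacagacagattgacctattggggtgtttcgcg
HERPUD1: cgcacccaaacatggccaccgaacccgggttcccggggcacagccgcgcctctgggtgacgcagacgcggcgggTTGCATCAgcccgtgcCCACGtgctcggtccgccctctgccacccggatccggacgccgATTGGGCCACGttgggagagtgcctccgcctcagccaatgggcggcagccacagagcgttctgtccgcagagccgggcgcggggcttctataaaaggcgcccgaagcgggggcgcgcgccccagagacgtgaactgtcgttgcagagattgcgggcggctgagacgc
ATF4: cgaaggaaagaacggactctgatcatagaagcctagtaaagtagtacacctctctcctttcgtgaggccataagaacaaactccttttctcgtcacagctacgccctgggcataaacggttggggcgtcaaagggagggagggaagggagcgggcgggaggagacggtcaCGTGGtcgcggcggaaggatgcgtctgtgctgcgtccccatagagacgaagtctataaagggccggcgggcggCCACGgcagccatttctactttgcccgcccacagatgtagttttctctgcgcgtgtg
ERN1: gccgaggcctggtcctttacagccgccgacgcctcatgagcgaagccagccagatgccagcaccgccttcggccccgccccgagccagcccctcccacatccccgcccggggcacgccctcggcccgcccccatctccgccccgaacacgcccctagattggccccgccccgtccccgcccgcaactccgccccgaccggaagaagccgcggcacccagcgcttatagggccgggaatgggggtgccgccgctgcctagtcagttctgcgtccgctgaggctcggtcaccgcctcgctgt

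The ER stress element ERSE, bound by ATF6 with the factor NF-Y, was searched as CCAAT followed after 9 bases by CCACG. It was found in the HSPA5 window, 66 bases before the start, and in 0.0769% of all 35116 windows. A second form, ERSE-II (ATTGG, 1 base of any kind, then CCACG), was added to the search after the windows were seen. It was found in the HERPUD1 window, 117 bases before the start, and in 0.0541% of all windows. The HERPUD1 window also held the element of ATF4 and C/EBP factors (CARE, searched as TGATGNAA), as did one ATF3 window, against 3.62% of all windows. CCACG alone, part of both ERSE forms, was found at 6 of the 10 genes and in 38.1% of all windows, and both ATF4 capitals are such matches. The cyclic AMP element TGACGTCA (1.85% of all windows) and the XBP1 element TGACGTGG (0.729%) were in none of the 13 windows listed for the 10 genes. Neither were 2 forms of IRF element, GGAANNGAAA for ETS-IRF pairs (2.82%) and GAAANNGAAA of the interferon type (3.57%). The ERN1 window held no match to any of the motifs. A missing match says only that these letters are not in this window, and intervals away from starts could not be searched because no genome sequence was used here.

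Of the 3 sensor genes, ERN1 lost accessibility at most of its intervals, EIF2AK3 at 1 of 4, and ATF6 at neither of its 2. ERN1 encodes IRE1, the kinase and endonuclease that splices XBP1 mRNA. On chromosome 17, 8 intervals were assigned to it, of which 5 fell, 1 rose and 2 did not pass. The largest fall lay in the gene body, 73.5 kb from the start (64056358 to 64057000). It measured 3.42 and 2.73 CPM in shIRF4 and 9.90 and 11.3 CPM in control. Both shIRF4 libraries were well below both control libraries (log2 fold change -1.74, SE 0.17, adjusted p = 1.74e-07, edgeR).

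Also in the ERN1 body, the interval at 64075666 to 64076774 had 5.81 and 6.98 CPM in shIRF4 and 12.9 and 14.0 CPM in control. Its groups did not overlap (log2 fold change -1.11, SE 0.14, adjusted p = 3.58e-06, edgeR). Closer to the start, 8.88 kb inside the gene (64120949 to 64121582), shIRF4 had 3.37 and 5.78 CPM and control 9.82 and 8.33 CPM. The groups again did not overlap, with shIRF4 replicate 2 nearer to control than replicate 1 (log2 fold change -1.10, SE 0.20, adjusted p = 0.000221, edgeR). Without shIRF4 replicate 1 this change was -0.63, still called. The interval 1617 bp upstream of the gene (64131555 to 64131967) had 2.01 and 2.29 CPM in shIRF4 and 4.78 and 4.84 CPM in control (log2 fold change -1.19, SE 0.22, adjusted p = 0.000352, edgeR), again without overlap. At 64073944 to 64074904 the level was 9.88 and 10.4 CPM in shIRF4 and 14.3 and 15.3 CPM in control, a smaller fall (log2 fold change -0.56, SE 0.12, adjusted p = 0.00128, edgeR) that DESeq2 did not call (adjusted p = 0.107).

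The ERN1 start interval (64129343 to 64131029) went the other way. It had 45.7 and 47.7 CPM in shIRF4 and 40.2 and 40.7 CPM in control, so that both shIRF4 libraries were higher (log2 fold change 0.20, SE 0.07, adjusted p = 0.0432, edgeR). This small rise was not called without shIRF4 replicate 2, without either control library or in DESeq2 (adjusted p between 0.0549 and 0.495). Of the last 2 ERN1 intervals, the one 66.5 kb inside the gene changed by -0.20 (adjusted p = 0.232, edgeR) and the one 3635 bp upstream by 0.00 (adjusted p = 0.996, edgeR), neither of them called. Per length, the start interval had 25.8 CPM per kb over the 4 libraries, and the 7 others 8.42 to 13.3 CPM per kb.

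EIF2AK3, which encodes PERK, the kinase of eIF2alpha, had 4 intervals on chromosome 2. The interval 20.7 kb inside the gene (88606471 to 88606986) had 11.6 and 10.7 CPM in shIRF4 and 15.9 and 15.6 CPM in control. It was lower in both shIRF4 libraries (log2 fold change -0.49, SE 0.11, adjusted p = 0.00279, edgeR), a call that DESeq2 did not make (adjusted p = 0.152). Its start interval (88626732 to 88628498) had 71.8 and 70.5 CPM in shIRF4 and 66.4 and 65.8 CPM in control. The groups did not overlap there, and the difference did not pass (log2 fold change 0.11, SE 0.06, adjusted p = 0.237, edgeR). Its other 2, at 88591125 and 88600078, changed by -0.04 and 0.30 with overlapping groups.

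ATF6, the sensor that becomes a transcription factor once cut, had 2 intervals on chromosome 1 and no call. Its start interval (161766151 to 161766831) was the least accessible of the 8, also per length (12.4 CPM per kb), with 9.17 and 9.27 CPM in shIRF4 and 7.63 and 7.81 CPM in control (log2 fold change 0.25, SE 0.14, adjusted p = 0.210, edgeR). A further interval 2638 bp upstream had 3.37 and 3.27 CPM in shIRF4 and 3.27 and 3.65 CPM in control, with overlapping groups. No interval was assigned to the rest of the ATF6 body, which runs from 161766320 to 161964070.

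Among the transcription factors of the response, ATF3 had falls inside the gene, and ATF4 had a small rise at its start. ATF3, a stress-induced factor of the ATF/CREB family, had 8 intervals on chromosome 1, 3 lower and 5 not called. Neither of the 2 start windows listed for ATF3 overlapped an interval. The interval 1568 bp inside the gene (212566434 to 212567516) had 18.7 and 17.7 CPM in shIRF4 and 26.3 and 26.2 CPM in control. Both shIRF4 libraries were lower (log2 fold change -0.52, SE 0.09, adjusted p = 0.000193, edgeR). At 212586629 to 212587134 the level was 6.62 and 7.86 CPM in shIRF4 and 11.7 and 13.1 CPM in control, a fall of the same direction (log2 fold change -0.82, SE 0.14, adjusted p = 0.000139, edgeR). A weaker fall, at 212606817 to 212607618, had 6.13 and 5.46 CPM in shIRF4 and 7.47 and 8.70 CPM in control (log2 fold change -0.46, SE 0.16, adjusted p = 0.0392, edgeR).

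That last ATF3 call was lost when any 1 library was left out (adjusted p between 0.0559 and 0.364), with libraries scaled by their totals (0.0653) and in DESeq2 (0.435). The most accessible ATF3 interval, also in the gene body (212607754 to 212610042), had 61.0 and 56.9 CPM in shIRF4 and 55.4 and 55.6 CPM in control, a difference that did not pass (log2 fold change 0.09, SE 0.07, adjusted p = 0.347, edgeR). A pair of weak intervals, starting at 212595937 and 212596422, had 1.95 to 3.49 CPM in shIRF4 and 1.04 to 1.93 CPM in control, with changes of 0.76 and 0.60 that did not pass (adjusted p = 0.0938 and 0.132, edgeR). The other 2 intervals, starting at 212558047 and 212587411, changed by -0.06 and -0.61 and did not pass (adjusted p = 0.662 and 0.116, edgeR). Changes in ATF3 thus lay on both sides of 0, and its 3 calls were all falls.

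ATF4, the factor whose translation PERK signalling raises, had 3 intervals on chromosome 22. Its start interval (39519236 to 39521318) had 50.3 and 52.9 CPM in shIRF4 and 45.4 and 44.7 CPM in control. Both shIRF4 libraries were higher, and the change was at the edge of the threshold (log2 fold change 0.19, SE 0.07, adjusted p = 0.0492, edgeR). It was not called without shIRF4 replicate 2, without either control library or in DESeq2 (adjusted p between 0.0698 and 0.517). The 2 intervals downstream, 835 and 2727 bp outside the gene, changed by 0.17 and 0.11 and did not pass.

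DDIT3, the gene of the proapoptotic factor CHOP, has 2 start windows that lie inside a broad interval on chromosome 12 (57519383 to 57523674). The midpoint of that interval falls in the neighbouring gene MBD6, whose start it also holds, so the rule assigns it there. It had 118 and 120 CPM in shIRF4 and 99.3 and 105 CPM in control, higher in both shIRF4 libraries (log2 fold change 0.22, SE 0.06, adjusted p = 0.00694, edgeR). Counts over this interval do not separate the 2 genes, and it is in none of the counts for the 38 intervals.

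**Figure D2:**
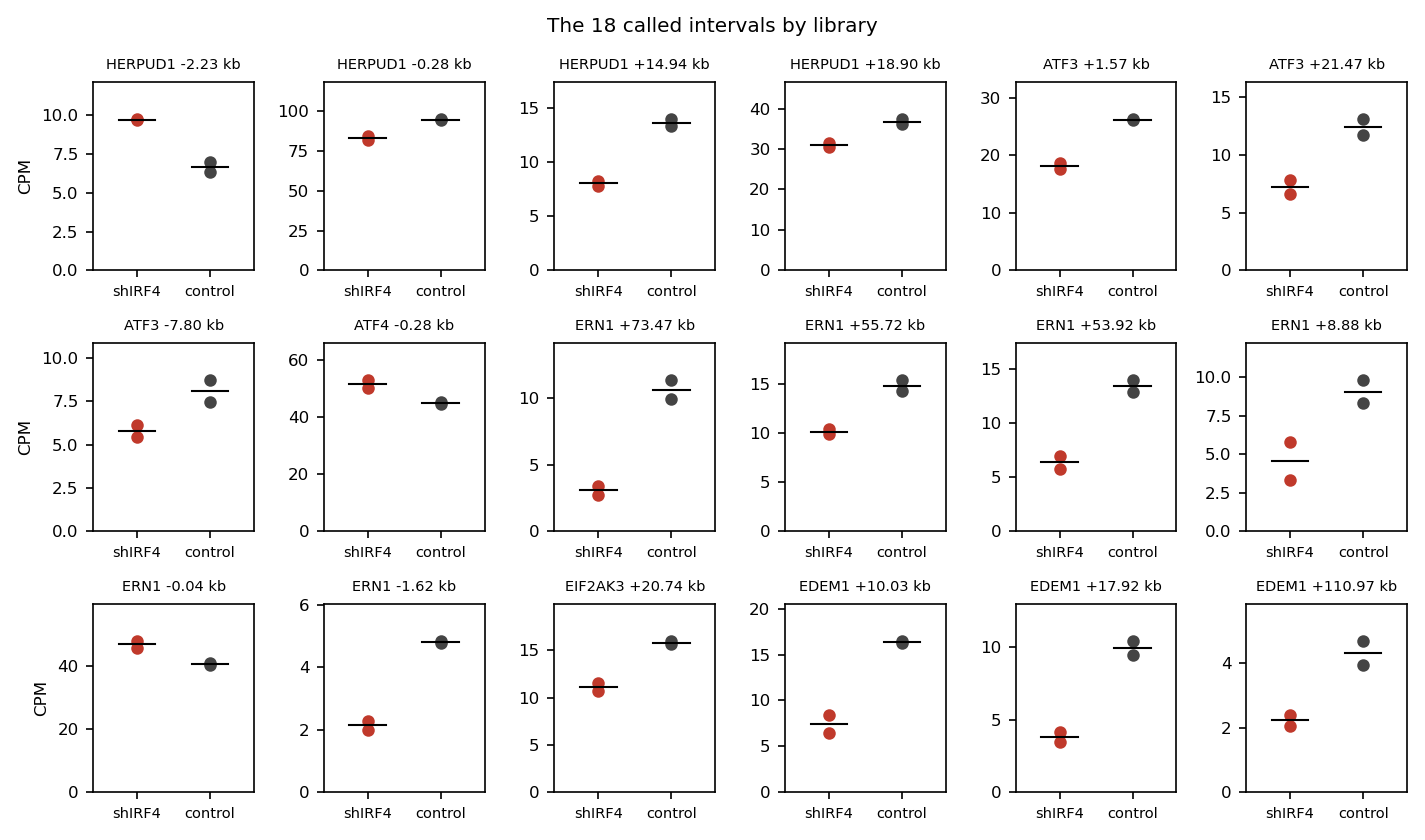
Accessibility in CPM (vertical axes, each from 0) in each library at the 18 called intervals, with shIRF4 libraries on the left and control libraries on the right of each panel and a line at each group's mean of 2 libraries. Titles give the gene and the distance from its nearest listed start in kb. No panel has overlapping groups, as held for 43129 of all 73028 intervals tested, and 15 have lower values in shIRF4.

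Of the chaperone and degradation genes, EDEM1 and HERPUD1 had lower intervals, and HSPA5 and DNAJB9 had no call. EDEM1 encodes a protein that marks misfolded glycoproteins for degradation. On chromosome 3, 2 intervals in its body fell. The one at 5205324 to 5205939 had 3.47 and 4.15 CPM in shIRF4 and 10.4 and 9.45 CPM in control (log2 fold change -1.41, SE 0.17, adjusted p = 1.89e-06, edgeR). Its neighbour at 5197350 to 5198124 had 8.41 and 6.44 CPM in shIRF4 and 16.4 and 16.2 CPM in control (log2 fold change -1.08, SE 0.13, adjusted p = 2.11e-06, edgeR). At both, every shIRF4 library was below every control library, and the calls held in all 10 other fits.

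An interval 78720 bp beyond the EDEM1 gene (5298559 to 5298798) also fell, with 2.39 and 2.07 CPM in shIRF4 and 3.94 and 4.69 CPM in control (log2 fold change -0.92, SE 0.23, adjusted p = 0.00424, edgeR). It was not called without control replicate 2 (adjusted p = 0.0713) or in DESeq2 (0.158), and its distance leaves its link to EDEM1 to position alone. A neighbour 85534 bp beyond the gene changed by 0.43 and did not pass (adjusted p = 0.206, edgeR). The EDEM1 start interval (5187199 to 5189307) had 59.7 and 58.6 CPM in shIRF4 and 60.1 and 61.2 CPM in control, a difference of -0.04 (SE 0.06, adjusted p = 0.750, edgeR) that did not pass and was 0.01 with libraries scaled by their totals.

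HERPUD1 encodes a membrane protein of the ER-associated degradation complex. It had calls in both directions among 5 intervals on chromosome 16. The interval 2218 bp beyond the gene's end (56946354 to 56947810) had 7.82 and 8.29 CPM in shIRF4 and 13.3 and 14.0 CPM in control, and both shIRF4 libraries were lower (log2 fold change -0.77, SE 0.13, adjusted p = 8.86e-05, edgeR). At the start, the interval (56930524 to 56933210), which holds the ERSE-II match, had 84.1 and 81.8 CPM in shIRF4 and 94.4 and 94.9 CPM in control (log2 fold change -0.19, SE 0.06, adjusted p = 0.0215, edgeR). It was the only one of the 8 start intervals called lower.

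Further downstream, the HERPUD1 interval at 56949960 to 56952132 had 30.5 and 31.5 CPM in shIRF4 and 36.2 and 37.3 CPM in control (log2 fold change -0.25, SE 0.08, adjusted p = 0.0209, edgeR). These 2 small falls were both lost with libraries scaled by their totals, without either control library and in DESeq2, and the downstream one also without shIRF4 replicate 1. Upstream, 2232 bp before the gene, the interval at 56929680 to 56930140 rose, with 9.66 and 9.71 CPM in shIRF4 and 6.96 and 6.32 CPM in control (log2 fold change 0.55, SE 0.14, adjusted p = 0.00785, edgeR). That rise was not called without control replicate 2 (adjusted p = 0.111) or in DESeq2 (0.224). The fifth interval, in the body, changed by -0.29 with overlapping groups (adjusted p = 0.351, edgeR).

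HSPA5, the gene of the chaperone BiP, had 1 interval, at its start on chromosome 9 (125240660 to 125242109). It had 55.7 and 63.6 CPM in shIRF4 and 50.8 and 53.6 CPM in control. The groups did not overlap, and the difference did not pass (log2 fold change 0.18, SE 0.07, adjusted p = 0.0766, edgeR). It passed as higher without shIRF4 replicate 1 (log2 fold change 0.29, adjusted p = 0.00689), with libraries scaled by their totals (log2 fold change 0.23, adjusted p = 0.0244) and with robust dispersion estimates (log2 fold change 0.18, adjusted p = 0.0467). Without shIRF4 replicate 2 the change was 0.09 (adjusted p = 0.308), so its size depended on which shIRF4 library was used. DNAJB9, the gene of a cochaperone of BiP, had a start interval on chromosome 7 (108569088 to 108570688) that also holds the start of the neighbouring gene THAP5. It had 67.7 and 67.1 CPM in shIRF4 and 62.6 and 62.7 CPM in control, and the difference did not pass (log2 fold change 0.11, SE 0.06, adjusted p = 0.242, edgeR). A second DNAJB9 interval, 18053 bp beyond the gene, changed by 0.28 and did not pass either (adjusted p = 0.360, edgeR). Per length, the start intervals of DNAJB9, EIF2AK3 and HSPA5 were the most accessible of all 38, at 40.6, 38.8 and 38.6 CPM per kb.

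Of the 30 intervals away from starts, 14 fell, 1 rose and 15 did not pass. Away from starts means that an interval overlaps no start window listed for its gene. All 8 ATF3 intervals count as such, also its most accessible one, for which an unlisted start was not tested. Over all 63171 tested intervals that hold no gene start, 17.3% were lower and 7.66% higher. The median over the 30 was -0.27, and that over all intervals without a start was 0.00. The median level was 6.85 CPM for the 30 and 5.48 CPM for all intervals without a start. In gene bodies 10 of 18 fell and none rose, and outside the genes 4 of 12 fell and 1 rose. ERN1 and EDEM1 together held 8 falls among 11 intervals. Without these 2 genes, 6 of 19 intervals were lower (31.6%) and 1 higher, with a median of -0.06.

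**Figure D3:**
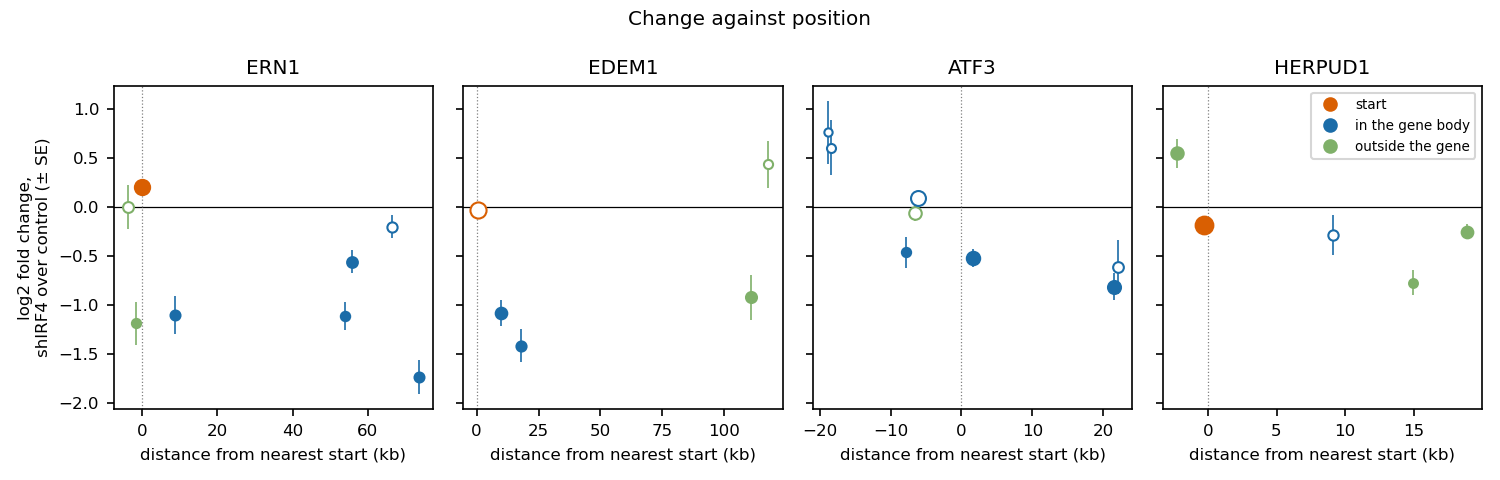
Log2 fold change in shIRF4 over control (vertical axis, bars show the SE) against the distance from the nearest listed gene start in kb (horizontal axis) for the intervals of ERN1, EDEM1, ATF3 and HERPUD1. Filled points passed an adjusted p of 0.05, larger points have more CPM per kb, and colours give the position. The ERN1 and EDEM1 start intervals lie near 0 (0.20 and -0.04), while the lowest of the other intervals reach -1.74 and -1.41.

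With counts summed per gene, ERN1, EDEM1, HERPUD1 and ATF3 fell and ATF4 rose, by at most 1.27-fold. This test was fitted over all 16177 genes with enough counts, of which 13.6% were lower and 6.91% higher. Counts were scaled anew over the assigned intervals only, so these CPM are on another scale than those of single intervals. The 1 interval of HSPA5 has 55.7 CPM in shIRF4 replicate 1 on the scale above and 61.15 CPM on this one. ERN1 summed to 95.4 and 99.4 CPM in shIRF4 and 121 and 126 CPM in control (log2 fold change -0.34, SE 0.05, adjusted p = 0.000106, edgeR). EDEM1 summed to 85.2 and 81.7 CPM in shIRF4 and 104 and 105 CPM in control (log2 fold change -0.32, SE 0.05, adjusted p = 0.000238, edgeR). HERPUD1 had 150 and 149 CPM in shIRF4 and 173 and 176 CPM in control (log2 fold change -0.22, SE 0.05, adjusted p = 0.00224, edgeR), a call that DESeq2 did not make (adjusted p = 0.0684). For these 3 genes the shIRF4 sums were all below the control sums.

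The sums of the other genes differed less. ATF3 had 137 and 135 CPM in shIRF4 and 151 and 150 CPM in control (log2 fold change -0.15, SE 0.05, adjusted p = 0.0290, edgeR), a call lost without either control library, with scaling by totals and in DESeq2. ATF4 had 69.6 and 71.3 CPM in shIRF4 and 62.5 and 63.0 CPM in control (log2 fold change 0.16, SE 0.05, adjusted p = 0.0368, edgeR), lost without either control library and in DESeq2. The log2 fold changes of HSPA5 (0.16), ATF6 (0.15), DNAJB9 (0.10) and EIF2AK3 (0.01) did not pass. With scaling by totals, the sums of HSPA5 (log2 fold change 0.21, adjusted p = 0.0254) and DNAJB9 (log2 fold change 0.15, adjusted p = 0.0453) passed as higher. The HSPA5 sum changed by 0.27 without shIRF4 replicate 1 (adjusted p = 0.00162, edgeR) and by 0.07 without shIRF4 replicate 2 (adjusted p = 0.422, edgeR). Summed only over intervals away from its own start, ERN1 changed by -0.75 (SE 0.06, adjusted p = 4.67e-07, edgeR), EDEM1 by -0.96 (SE 0.09, adjusted p = 1.08e-06, edgeR) and HERPUD1 by -0.24 (SE 0.06, adjusted p = 0.00766, edgeR). In that fit over 13923 genes, 17.5% were lower and 9.63% higher, and ATF4 (0.14), ATF6 (-0.06), DNAJB9 (0.28) and EIF2AK3 (-0.16) did not pass. ATF3, whose 8 intervals are the same in both sums, changed by -0.13 in that fit and did not pass (adjusted p = 0.0752, edgeR).

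**Figure D4:**
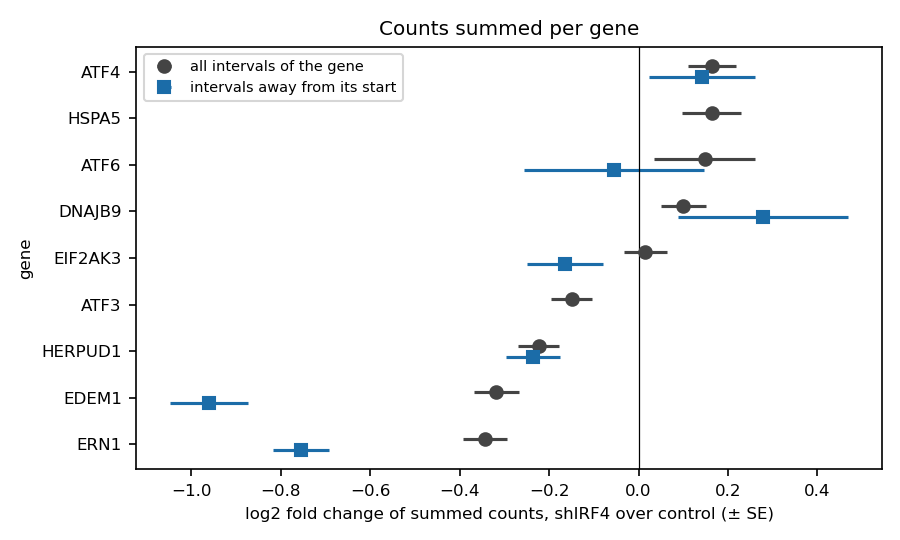
Log2 fold change of counts summed per gene in shIRF4 over control (horizontal axis, bars show the SE), over all intervals of the gene (circles) and over those away from its own start (squares). HSPA5 has a start interval only and ATF3 has no interval at a listed start, so each has 1 point. For ERN1 and EDEM1 the squares (-0.75 and -0.96) lie below the circles (-0.34 and -0.32).

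Over all other intervals within 1 Mb of each gene, the median log2 fold change lay between -0.06 (EDEM1) and 0.10 (DNAJB9). Around ERN1 it was 0.03 over 101 intervals, of which 9 were lower and 10 higher. The lowest single neighbour was at -1.88 around ERN1, against -1.74 for its own lowest interval, and at -2.30 around ATF3, against -0.82 for its own. Of the 10 genes, EDEM1 and ATF3 had the largest shares of lower intervals nearby, 8 of 35 (22.9%) and 13 of 59 (22.0%).

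Intervals of other genes in the response were called at about the rate of all intervals. In 5 lists with 54 further genes, 51 had intervals, and of their 213 intervals 37 fell (17.4%), 10 rose (4.69%) and 166 did not pass, with a median of 0.00. Of the 43 of these intervals that hold a gene start, 1 fell and 2 rose. The IRE1 branch had the largest share of falls, 13 of 52 with 3 rises. In SEC63, a gene of the ER translocation channel, an interval 88.8 kb inside the gene had 0.489 and 0.655 CPM in shIRF4 and 3.61 and 2.90 CPM in control (log2 fold change -2.55, adjusted p = 3.58e-06, edgeR). MAP3K5, the kinase ASK1 that acts below IRE1, and SEC61B, a channel subunit, had intervals that fell, with log2 fold changes of -1.82 and -1.08. In the ER-associated degradation list 9 of 46 fell and 3 rose. An interval 793 bp outside SEL1L, a scaffold of the degradation complex, had 9.55 and 12.6 CPM in shIRF4 and 30.5 and 31.0 CPM in control (log2 fold change -1.53, adjusted p = 2.09e-09, edgeR). An interval near HERPUD2, a paralog of HERPUD1, fell (log2 fold change -1.36).

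The other 3 lists had smaller shares of calls; values in brackets are log2 fold changes. In the ATF6 branch 6 of 38 fell and 1 rose, with falls in CREB3L2 (-1.07), CREB3L1 (-0.41), both ER-bound factors related to ATF6, and MBTPS1 (-0.41), the protease that first cuts ATF6. Of the ER chaperone intervals, 6 of 52 fell and 1 rose, among them intervals in PDIA6 (-1.07) and near HSP90B1 (-1.40) that fell and one near PDIA4 (0.80) that rose. In the PERK branch and integrated stress response, 3 of 25 fell and 2 rose, with falls near NUPR1 (-1.54) and at the start of TRIB3 (-0.25), a pseudokinase gene that ATF4 and CHOP induce, and a rise in EIF2AK1 (0.46), another kinase of eIF2alpha.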

How the data were processed

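ATAC-seq libraries of TMD8 cells (2 shIRF4, 2 control) were analysed from the authors' deposited raw read counts per merged peak interval. The counts were made with featureCounts 2.0.0, per the file headers, from reads reduced to their 5' end, ignoring reads marked as duplicates, which can cap dense intervals more in deeper libraries. Per the submitters' processing notes, coordinates are on hg38. No source used here names the aligner, the peak caller or any shift of read ends. All counts were whole numbers.

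Computed here: filterByExpr kept 73028 of 73135 intervals. Counts were scaled by TMM (factors 0.981 to 1.03) and tested over all intervals with edgeR 4.0.16 in R 4.3.3 (estimateDisp, glmQLFit with legacy=FALSE, quasi-likelihood F-test, two-sided, adjusted by Benjamini and Hochberg, threshold 0.05). The SE was taken as the absolute log2 fold change over the root of F. CPM use the TMM factors, which were computed anew for the gene sums, and "rose" and "fell" mean called. The code was tested on simulated data. Gene bodies and start windows came from RefSeq (GRCh38.p14); an interval in several bodies went to the shortest. Assignment is by position alone and is no evidence of regulation.

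Alternatives were DESeq2 1.42.0, other scalings, no filter, robust dispersion, a replicate term, other assignments and leaving out each library. The genes and lists were chosen with earlier results of these data known. Named were all called intervals of the 10 genes, their start intervals and, per gene, the most accessible interval, and up to 3 genes per further list by smallest p. One gene that this rule names is not reported here. The uncalled intervals of the 10 genes were added after their values were seen.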

Additional observations from a re-analysis of the deposited data

How the results depend on the processing

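The called, start and most accessible intervals of the genes, and the gene sums, kept their direction in every fit, with 3 exceptions. The other uncalled intervals were not compared across fits. The EDEM1 start interval was 0.0118 with total counts only. The EIF2AK3 sum ranged from -0.0195 to 0.0386 with 1 library left out and was -0.16 away from starts, and the ATF6 sum was -0.0554 away from starts; summing away from starts was chosen after seeing the data. DESeq2 called 4570 of all intervals, 9 member intervals (9 lower, 0 higher) and 17 intervals of the further lists (16 lower, 1 higher). Counting only intervals within 1 kb of a gene end left 9 member intervals, of which 3 were called (1 lower). In the further lists it left 4 calls (2 lower, 2 higher). With assignment within 50 kb, 14 of 36 member intervals were lower and 3 higher. By the nearest gene end regardless of gene bodies, 15 of 38 were lower and 3 higher. With 1 library left out, where a lone library is assumed to vary like the other group, calls ranged from 9043 to 20033 over all intervals, from 11 to 18 among members (11 to 14 lower, 0 to 5 higher) and from 32 to 51 in the further lists (29 to 39 lower, 2 to 12 higher). RLE factors and no filter changed no call among named results. The shared replicate numbers are not stated to pair libraries, and deviations of same-numbered libraries correlated at -0.0287. With the replicate block, 16612 of all intervals, 18 member intervals and 45 in the further lists were called; the ATF4 start was lost (adjusted p = 0.0580) and the HSPA5 sum was called (adjusted p = 0.0472). The 2 libraries per group and their depth limit the precision of every value.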
